A study of Mus musculus with 19 samples.

Results

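Levels of 9 genes for transcription factors that set myeloid fate (Spi1, Irf8, Irf4, Klf4, Cebpa, Cebpb, Gfi1, Lyl1 and Zeb2) were followed in bulk RNA-seq of monocytes sorted from mouse bone marrow. They were chosen by name for their known roles, as 9 of the 50854 genes in the table of counts, and all 9 passed the filter on low counts. The mice were REP mice, whose chemokine receptor genes carry fluorescent reporters, and all were female and 8 to 12 weeks old. Resting mice gave 4 libraries of CCR1/2+ve monocytes, which expressed the reporters of CCR1 and CCR2, and 4 libraries of CCR2+ve monocytes, which expressed the CCR2 reporter without that of CCR1. Inflamed mice, which carried osmotic pumps delivering IL-3, IL-6, GM-CSF and IFN-α, gave 3 libraries of CCR1/2+ve monocytes (replicates 2, 3 and 4) and 4 of CCR2+ve monocytes. The remaining 4 libraries carry the label inflamed CCR1, a sort that the protocols do not describe. The labels do not say that replicates came from separate mice, so p-values measure the spread between these samples. Whether resting mice carried vehicle pumps, and whether resting and inflamed cells were sorted and sequenced together, is not given in the sources used here. Inflammation and any such batch therefore cannot be told apart.

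Monocytes arise in the bone marrow from progenitors that can also form neutrophils and dendritic cells. PU.1, the product of Spi1, opens myeloid genes in all of these lineages, and the balance between it and its partners steers the choice among them. IRF8 and KLF4 favor monocytes, GFI1 represses the monocyte program in cells that become neutrophils, and C/EBP factors drive granule genes and the emergency output of granulocytes.

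Spi1 (ENSMUSG00000002111) lies at chr2:91082390-91115756 of GRCm38 and encodes the ETS factor PU.1. Irf8 (ENSMUSG00000041515, chr8:120736358-120756694) encodes an interferon regulatory factor that pairs with PU.1 on DNA. Its relative Irf4 (ENSMUSG00000021356, chr13:30749226-30766976) is known for its part in conventional dendritic cells, B cells and macrophages of the alternative type. Klf4 (ENSMUSG00000003032, chr4:55527143-55532466) encodes a zinc finger factor needed for Ly6C-high monocytes. Cebpa (ENSMUSG00000034957, chr7:35119293-35121928) encodes the C/EBP factor of steady granulocyte and monocyte progenitors, and Cebpb (ENSMUSG00000056501, chr2:167688915-167690418) the one of emergency granulopoiesis and of macrophage cytokine genes. Gfi1 (ENSMUSG00000029275, chr5:107716657-107726036) and Zeb2 (ENSMUSG00000026872, chr2:44983632-45117395) encode zinc finger repressors, the first tied to neutrophil fate and the second to monocyte, dendritic and NK cell fates. Lyl1 (ENSMUSG00000034041, chr8:84701457-84704715) encodes a basic helix-loop-helix factor of blood progenitors that binds DNA with E proteins and LMO2.

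The 250 bases before the RefSeq transcription start (GRCm38.p6) are shown for 4 members whose levels moved apart, so that their base composition and short motifs can be seen beside the values. RefSeq windows were matched for 8 of the 9 members. Capitals mark matches, on either strand, to any of 8 short motifs: GGAANNGAA (ETS-IRF composite), GAAANNGAA (interferon response), GAGGAAGT (PU.1), TTCNNNGAA (STAT), TTGCNNAA (C/EBP), CACCTG (ZEB E-box), CCACCC (KLF) and AAATCA (GFI1).
Irf8, chr8:120736108-120736357, plus strand: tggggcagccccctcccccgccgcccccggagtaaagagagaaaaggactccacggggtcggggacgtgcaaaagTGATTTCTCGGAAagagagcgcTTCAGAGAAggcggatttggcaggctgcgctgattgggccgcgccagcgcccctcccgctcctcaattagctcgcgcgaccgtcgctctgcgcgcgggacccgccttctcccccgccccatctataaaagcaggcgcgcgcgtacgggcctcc
Irf4, chr13:30748983-30749232, plus strand: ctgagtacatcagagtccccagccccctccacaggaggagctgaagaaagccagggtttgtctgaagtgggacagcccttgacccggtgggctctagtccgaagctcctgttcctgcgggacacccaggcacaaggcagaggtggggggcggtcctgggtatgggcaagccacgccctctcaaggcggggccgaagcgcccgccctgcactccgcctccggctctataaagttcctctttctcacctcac
Lyl1, chr8:84701207-84701456, plus strand: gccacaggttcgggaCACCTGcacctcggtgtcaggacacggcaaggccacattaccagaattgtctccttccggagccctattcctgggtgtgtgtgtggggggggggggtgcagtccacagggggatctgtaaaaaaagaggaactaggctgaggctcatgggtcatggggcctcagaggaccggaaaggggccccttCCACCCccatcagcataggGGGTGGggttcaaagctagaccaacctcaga
Cebpb, chr2:167688665-167688914, plus strand: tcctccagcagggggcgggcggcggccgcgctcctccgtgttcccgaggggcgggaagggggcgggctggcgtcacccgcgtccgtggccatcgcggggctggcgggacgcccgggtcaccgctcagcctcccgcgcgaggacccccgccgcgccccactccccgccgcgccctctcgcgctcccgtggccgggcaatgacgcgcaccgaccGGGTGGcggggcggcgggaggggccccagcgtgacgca
The Irf8 window printed held 2 STAT matches, starting 171 and 153 bases before the start, and a GFI1 match at 175 bases that overlapped the first of them. STAT matches stood in 7.04% of all 32536 windows of this length and GFI1 matches in 12.3%. The Irf4 window held no match to the 8 motifs. The Lyl1 window held a ZEB E-box match at 235 bases and KLF matches at 50 and 31 bases, and the Cebpb window a KLF match at 38 bases. ZEB E-box matches stood in 17.29% of all windows and KLF matches in 28.14%. The Cebpb window had a GC content of 81.6%, against 67.2% for Irf8, 63.6% for Irf4 and 60% for Lyl1. Among the windows not printed, a second one of Irf8 held a ZEB E-box match at 205 bases and a GFI1 match at 226 bases, and that of Cebpa a KLF match at 242 bases. The first window of Gfi1 held a C/EBP match at 143 bases, a ZEB E-box match at 42 bases and KLF matches at 111 and 6 bases. Of the Zeb2 windows the first held a C/EBP match at 221 bases, the second and the third, which overlap, a STAT match at 147 and 173 bases, and the last a KLF match at 36 bases. The window of Klf4 and the second window of Gfi1 held no match to the 8 motifs. C/EBP matches stood in 9.57% of all windows. The ETS-IRF, interferon response and PU.1 motifs matched in 6.95%, 7.15% and 2.45% of all windows and in none of the 13 windows of the members. A match is a run of letters and not a measured binding site.

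Libraries held between 22268658 and 30502009 reads on genes. Levels are given as CPM, the read count of a gene scaled to the TMM-adjusted size of its library, and fold changes as log2 values with standard errors. All 11 monocyte markers had means above 10 CPM in each of the 4 CCR1/2+ve and CCR2+ve groups, where they summed to between 33440 and 66360 CPM. The libraries labelled inflamed CCR1 went against their monocyte label. Their monocyte markers summed to between 7778 and 12390 CPM, with 7 of 11 means above 10 CPM, while their neutrophil markers summed to between 105000 and 153600 CPM, against 841.5 to 3738 in the other 15 libraries. Early granulocyte markers summed to between 55120 and 61850 CPM there. Ccr2 was at 5.82 ± 2.56 CPM (SD, n = 4) and Ccr1 at 38.0 ± 4.6 CPM in those libraries, below the means of every other group, so they are called by their label only.

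**Figure D1:**
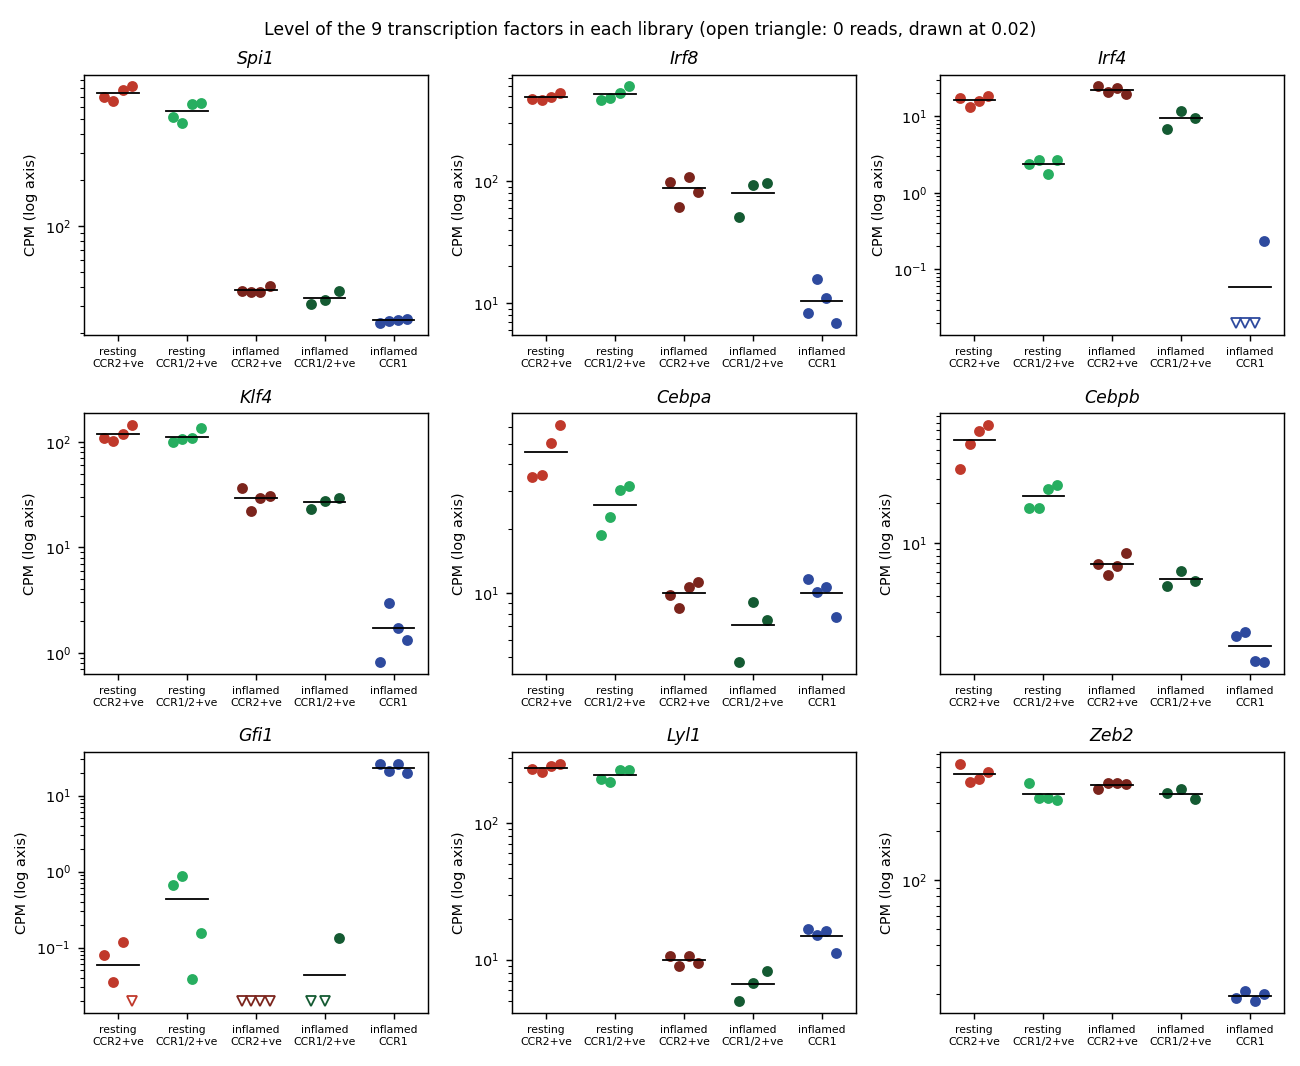
Level of each of the 9 genes in the 19 libraries, in CPM on a log axis, 1 panel a gene. Points are libraries, the black line is the group mean, and open triangles are libraries with 0 reads. Spi1, Irf8, Klf4, Cebpa, Cebpb and Lyl1 sat lower in all inflamed libraries than in all resting ones, and Gfi1 stood out in the 4 libraries labelled inflamed CCR1, at 19.8 to 25.9 CPM.

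The first comparison asks how resting CCR1/2+ve monocytes differ from resting CCR2+ve monocytes. The CCR1/2+ve monocytes had lower levels of 5 of the 9 genes (Spi1, Irf4, Cebpa, Cebpb and Zeb2). None was called higher in this fit, which left out the replicate number. The other four (Irf8, Klf4, Gfi1 and Lyl1) did not pass the test. Irf4 and Cebpb differed most among the 5, by 6.44-fold and 2.51-fold. Over all 18652 genes tested 16.9% were called, 8.44% higher and 8.44% lower, at a Benjamini-Hochberg adjusted p below 0.05 by edgeR's quasi-likelihood test. Of the 11 monocyte markers 7 were lower as well, and their sums did not overlap, with 33440 to 46970 CPM in CCR1/2+ve and 50130 to 58110 CPM in CCR2+ve libraries. Their part in the levels of the 9 genes was not tested. The replicate number was taken to pair the resting samples. With it as a block Irf8 was also called, higher by 0.15 on the log2 scale (adjusted p = 0.0324, edgeR), beside 25.7% of all genes.

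Irf4 was at 2.40, 2.69, 1.76 and 2.71 CPM in the 4 resting CCR1/2+ve libraries and at 17.3, 13.3, 16.1 and 18.7 CPM in the 4 resting CCR2+ve libraries. The groups were far apart, with the highest CCR1/2+ve library at 2.71 CPM and the lowest CCR2+ve library at 13.3 CPM. The log2 fold change was -2.69 ± 0.17 (SE, adjusted p = 1.51e-05, edgeR). Cebpb was at 18.3, 18.4, 25.6 and 27.3 CPM in CCR1/2+ve monocytes and at 36.1, 55.4, 69.2 and 76.5 CPM in CCR2+ve monocytes. These groups did not overlap either, although replicate 1 of the CCR2+ve monocytes lay well below the other three. The log2 fold change was -1.33 ± 0.20 (SE, adjusted p = 0.000765, edgeR). Of the exonic bases of Cebpb 20.7% are also covered by exons of Tmem189, so its counts are uncertain. Cebpa, the other C/EBP factor among the 9, was at 18.7, 22.7, 30.4 and 31.5 CPM in CCR1/2+ve monocytes and at 35.1, 35.7, 50.3 and 61.0 CPM in CCR2+ve monocytes, giving a log2 fold change of -0.74 ± 0.18 (SE, adjusted p = 0.0150, edgeR). Without replicate 2 of the CCR1/2+ve monocytes the Cebpa call was lost (-0.70, adjusted p = 0.0545, edgeR). In a fit with the replicate number as a block it was kept (-0.73, adjusted p = 7.6e-06, edgeR).

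Spi1 and Zeb2 differed by less. Spi1 was at 517.1, 467.8, 631.2 and 639.3 CPM in CCR1/2+ve monocytes and at 695.4, 651.7, 773.6 and 817.6 CPM in CCR2+ve monocytes. The highest CCR1/2+ve library lay just under the lowest CCR2+ve library, and the log2 fold change was -0.31 ± 0.10 (SE, adjusted p = 0.0497, edgeR). Zeb2 was at 394.9, 322.6, 319.4 and 312.5 CPM against 518.1, 401.0, 421.5 and 462.0 CPM, with a log2 fold change of -0.34 ± 0.11 (SE, adjusted p = 0.0451, edgeR). Both calls lay close to the threshold, and each was lost when any of several single libraries was left out. That of Spi1 was also lost with a GC offset (adjusted p = 0.0677, edgeR) and that of Zeb2 with filterByExpr (adjusted p = 0.0536, edgeR). With the replicate number as a block both passed, Spi1 at -0.31 (adjusted p = 0.000133, edgeR) and Zeb2 at -0.34 (adjusted p = 0.000158, edgeR). That fit called 25.7% of all genes. Only 2 of the 9 genes were called without replicate 2 of the CCR1/2+ve monocytes, and 3 without replicate 1, 3 or 4 of the CCR2+ve monocytes. The share of all genes called was also lower in these fits, at 13.0%, 13.2%, 12.2% and 11.7% in that order, against 16.9% with all libraries. Where a log2 change of 1 or more in either direction was also required, the calls were Irf4 and Cebpb, 2 of 9, beside 4.25% of all genes.

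Irf8, the partner of PU.1, was at 456.2, 479.6, 522.4 and 594.0 CPM in CCR1/2+ve monocytes and at 464.7, 458.7, 489.6 and 526.2 CPM in CCR2+ve monocytes. The ranges overlapped, and the log2 fold change was 0.16 ± 0.08 (SE, adjusted p = 0.233, edgeR). Samples of the same replicate number deviated together in this comparison, and with the replicate number as a block the same fold change passed the test, with 0.15 and an adjusted p of 0.0324 (edgeR), so that 6 of the 9 genes were called, where 25.7% of all genes were called with the block. Klf4 ranged from 99.2 to 134.7 CPM and from 102.7 to 144.1 CPM, and Lyl1 from 201.0 to 245.0 CPM and from 238.3 to 271.6 CPM. Neither passed the test, with log2 fold changes of 0.00 ± 0.11 for Klf4 (SE, adjusted p = 0.995, edgeR) and -0.11 for Lyl1 (adjusted p = 0.375).

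Gfi1, the repressor of neutrophil precursors, was near the floor of detection in resting monocytes. The resting CCR1/2+ve libraries held 20, 29, 1 and 5 reads of it, 55 in all, and the resting CCR2+ve libraries 6 reads in all. Replicates 1 and 2 of the CCR1/2+ve monocytes carried nearly all of these reads. The ratio of the summed reads was 7.76 (95% interval 3.35 to 22.1, counting error only), and edgeR's test across libraries gave an adjusted p of 0.0603. Gfi1 was called higher with no filter (adjusted p = 0.0394, edgeR), all libraries in one fit (0.0270), a GC offset with the block (0.0462), and without replicate 3 (0.0228) or 4 (0.0498) of the CCR1/2+ve monocytes. Replicates 1 and 2 were also the CCR1/2+ve libraries with most early granulocyte marker RNA, which summed to 4178, 6793, 3497 and 3291 CPM over Mpo, Elane, Prtn3, Ms4a3 and Fcnb in the 4 libraries. All 5 of these markers were higher in CCR1/2+ve than in CCR2+ve monocytes, whose sums ran from 445.4 to 1643 CPM, and their part in the Gfi1 reads was not tested.

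Other transcription factors, from the families of the 9 genes and from lists of progenitor, macrophage and dendritic cell factors and co-repressors, were mostly lower or not called in resting CCR1/2+ve monocytes. Of 90 genes listed 83 were tested, 4 were higher and 24 lower, with a median log2 fold change of -0.23, against 0.03 over all genes. Among interferon regulatory factors 4 of 6 were lower, and of 7 KLF genes 4. None of the 4 other C/EBP genes was called. Atf3, a stress-induced bZIP factor, was at 11.6 ± 1.48 CPM (SD, n = 4) against 33.4 ± 5.42 CPM, with a log2 fold change of -1.46 ± 0.13 (SE, adjusted p = 5.58e-05, edgeR). Tcf4, the E protein E2-2 of plasmacytoid dendritic cells, had a log2 fold change of -1.10 ± 0.13. Tfec, a macrophage factor of the MITF family, was higher by 1.01 ± 0.10, and Id1, an inhibitor of E proteins, by 0.85 ± 0.09. Of 10 macrophage markers 4 were higher and 3 lower, and their part in the level of Tfec was not tested.

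Genes known as targets of the factors were called in both directions, each by the same test. Of 11 genes known as targets of PU.1 5 were lower, among them Csf1r, the receptor for CSF-1, at 406.8 ± 68.2 CPM against 836.9 ± 112.0 CPM (SD, n = 4 each), a log2 fold change of -0.97 ± 0.12. Of 11 genes known as targets of IRF8 and IRF4 8 were lower. They included Ccr2, which the sort selects on through its reporter, and Flt3, the cytokine receptor of dendritic cell precursors, with a log2 fold change of -2.53 ± 0.26 (SE, adjusted p = 9.41e-05, edgeR). Of 9 genes known as targets of C/EBP factors 6 were higher, among them Lcn2 (2.23 ± 0.32) and Prtn3 (1.78 ± 0.27), which encode granule proteins, while Cebpa and Cebpb were themselves lower. Of these 9 genes 4 (Mpo, Elane, Prtn3 and Ms4a3) are also early granulocyte markers. The others, Lcn2, Ltf, Camp, Ngp and Csf3r, are also neutrophil markers. Csf3r, the G-CSF receptor, was lower by 1.24-fold. Among 10 cytokine receptor genes tested 5 were lower and Kit, the receptor of progenitors and mast cells, was higher by 4.54-fold, from 0.800 ± 0.52 to 3.42 ± 2.90 CPM. Of 12 neutrophil markers 6 were higher and 1 lower. Dendritic cell markers were lower too, 7 of 12, with sums of 178.4 to 488.5 CPM in CCR1/2+ve libraries and 902.2 to 2635 CPM in CCR2+ve libraries. Irf4 moved with them between the groups, and the part of these markers in it was not tested. In bulk RNA fewer cells of a type and less RNA per cell cannot be told apart. The target and receptor lists share members with the marker lists.

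**Figure D2:**
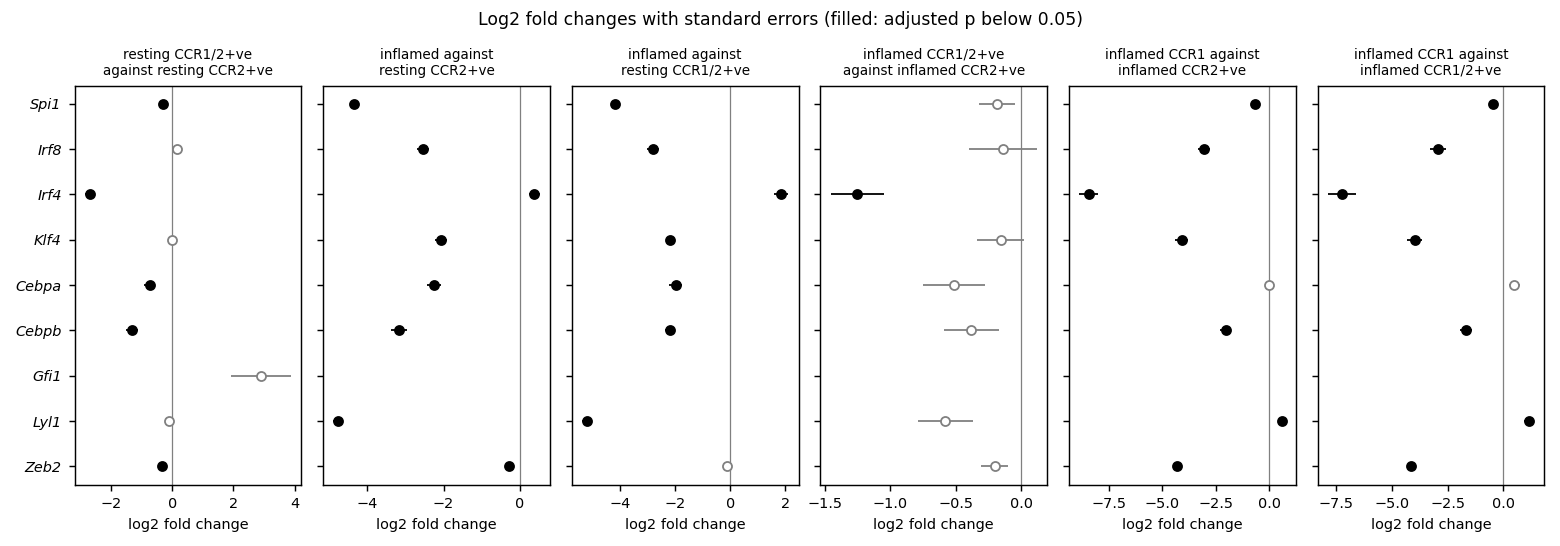
Log2 fold change of each gene with its standard error in the 6 comparisons of groups. Filled points passed an adjusted p of 0.05 (edgeR), open points did not, and Gfi1 is left out where a group held 3 reads or fewer. Irf4 was lower in resting CCR1/2+ve monocytes (-2.69) yet higher with inflammation in both populations. Its call with inflammation in CCR2+ve monocytes was lost when any of several single libraries was left out. With inflammation Spi1 and Lyl1 fell by over 4 on this scale.

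The next comparisons ask what inflammation did to each population. In CCR2+ve monocytes 8 of the 9 genes were called, 7 lower and Irf4 higher, where 47.8% of all genes were called (21.9% higher and 25.9% lower). In CCR1/2+ve monocytes 7 of the 9 were called, 6 lower and Irf4 higher, where 46.0% of all genes were called (20.6% higher and 25.4% lower). The 2 comparisons share no samples. Where a log2 change of 1 or more was also required the counts were 6 and 7 of 9, beside 28.6% and 28.5% of all genes. They share their resting libraries with the first comparison. The median log2 fold change of all genes was -0.10 for CCR2+ve and -0.25 for CCR1/2+ve monocytes, and that of the 9 genes -2.54 and -2.19.

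Markers of other cell types moved as well. In the 7 inflamed CCR1/2+ve and CCR2+ve libraries erythroid markers summed to at most 4.04 CPM, after 51.3 to 249.5 CPM at rest, and basophil and mast cell markers to between 104.2 and 237.1 CPM, after 1.17 to 21.8 CPM. Neutrophil markers were higher for 8 of 12 genes in CCR2+ve and 7 of 12 in CCR1/2+ve monocytes. Early granulocyte markers were lower for 2 of 5 and 5 of 5. Of 10 macrophage markers 5 were higher and 0 lower in CCR2+ve monocytes, and 4 higher and 5 lower in CCR1/2+ve monocytes. Dendritic cell markers summed to between 956.9 and 1201 CPM in inflamed CCR1/2+ve libraries, after 178.4 to 488.5 CPM at rest, with 3 of 12 genes higher and 4 lower. In CCR2+ve libraries they summed to between 1373 and 4997 CPM, after 902.2 to 2635 CPM at rest, with 1 of 12 genes higher and 6 lower. The part of these markers in the changes of the 9 genes was not tested.

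Lyl1 and Spi1 showed the widest falls. Lyl1 was at 248.3, 238.3, 264.4 and 271.6 CPM in resting CCR2+ve monocytes and at 10.6, 8.92, 10.6 and 9.38 CPM in inflamed ones, 27.2-fold lower. In CCR1/2+ve monocytes it went from 210.2, 201.0, 244.3 and 245.0 CPM to 4.99, 6.70 and 8.30 CPM, 36.7-fold lower. No inflamed library came near a resting one. The log2 fold changes were -4.76 ± 0.12 (SE, adjusted p = 2.95e-12, edgeR) and -5.20 ± 0.18 (adjusted p = 2.63e-09, edgeR). Spi1 fell from 734.6 ± 74.9 to 38.1 ± 1.64 CPM in CCR2+ve monocytes (SD, n = 4 each), with inflamed libraries at 37.4, 37.2, 37.2 and 40.5 CPM. In inflamed CCR1/2+ve monocytes it was at 30.9, 33.1 and 37.6 CPM, after 467.8 to 639.3 CPM at rest. The log2 fold changes were -4.34 ± 0.11 (adjusted p = 2.95e-12, edgeR) and -4.18 ± 0.13 (adjusted p = 1.45e-09, edgeR). Lyl1 has a GC content of 62.6%, and with a GC offset its log2 fold changes were -4.12 and -4.29. Those of Spi1 were then -4.26 and -3.93, so which gene fell more in CCR2+ve monocytes depended on the offset.

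Falls of this size also occurred in abundant genes outside the 9. Of genes with a resting mean of at least 100 CPM, 25 of 2028 (1.23%) were lower by 16-fold or more in inflamed CCR2+ve monocytes, and 27 of 1881 (1.44%) in inflamed CCR1/2+ve monocytes. Spi1 and Lyl1 are themselves among the genes counted in both. Pfn1, which encodes the actin-binding protein profilin and was picked after its values were seen, fell from 3014 ± 231 to 166.1 ± 29.0 CPM in CCR2+ve monocytes. Actb, which encodes the actin that profilin binds and was also picked after its values were seen, was at 12010 ± 867 CPM at rest and 27630 ± 2300 CPM with inflammation. Whether sample handling or library preparation had a part in such falls was not tested.

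Irf8 and Klf4, the pair tied to monocyte fate, fell by less. Irf8 was at 464.7, 458.7, 489.6 and 526.2 CPM in resting CCR2+ve monocytes and at 97.9, 61.4, 108.5 and 81.6 CPM in inflamed ones, 5.82-fold lower. In inflamed CCR1/2+ve monocytes it was at 50.8, 92.2 and 96.5 CPM, 6.98-fold lower than at rest. Replicate 2 was the lowest library of both the inflamed CCR2+ve and the inflamed CCR1/2+ve group, and every resting library lay at 456.2 CPM or more. Klf4 was at 108.3, 102.7, 117.7 and 144.1 CPM and then 36.8, 22.2, 29.2 and 30.4 CPM in CCR2+ve monocytes, 4.17-fold lower. In inflamed CCR1/2+ve monocytes it was at 23.2, 27.8 and 29.6 CPM, 4.56-fold lower than at rest.

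Cebpa was 4.73-fold lower in inflamed CCR2+ve monocytes, at 9.74, 8.51, 10.7 and 11.2 CPM, and 3.95-fold lower in inflamed CCR1/2+ve monocytes, at 4.75, 9.05 and 7.47 CPM. Cebpb was at 6.86, 5.72, 6.63 and 8.31 CPM in inflamed CCR2+ve monocytes, giving a log2 fold change of -3.17 ± 0.21 (SE, adjusted p = 9.62e-09, edgeR). In inflamed CCR1/2+ve monocytes it was at 4.75, 6.10 and 5.18 CPM, giving a log2 fold change of -2.19 ± 0.18 (SE, adjusted p = 1.53e-06, edgeR). All inflamed libraries lay below all resting ones for both genes. Cebpb is the richest of the 9 in GC, with 67.2% in its transcript, and its fall depended on a correction for GC content. With a GC offset it was -1.68 in CCR2+ve monocytes (adjusted p = 3.69e-06, edgeR) and -0.22 in CCR1/2+ve monocytes (adjusted p = 0.495, edgeR). Cebpa, with a GC content of 62.6%, moved to -1.60 and -1.08 with the offset and stayed past the threshold in both.

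**Figure D3:**
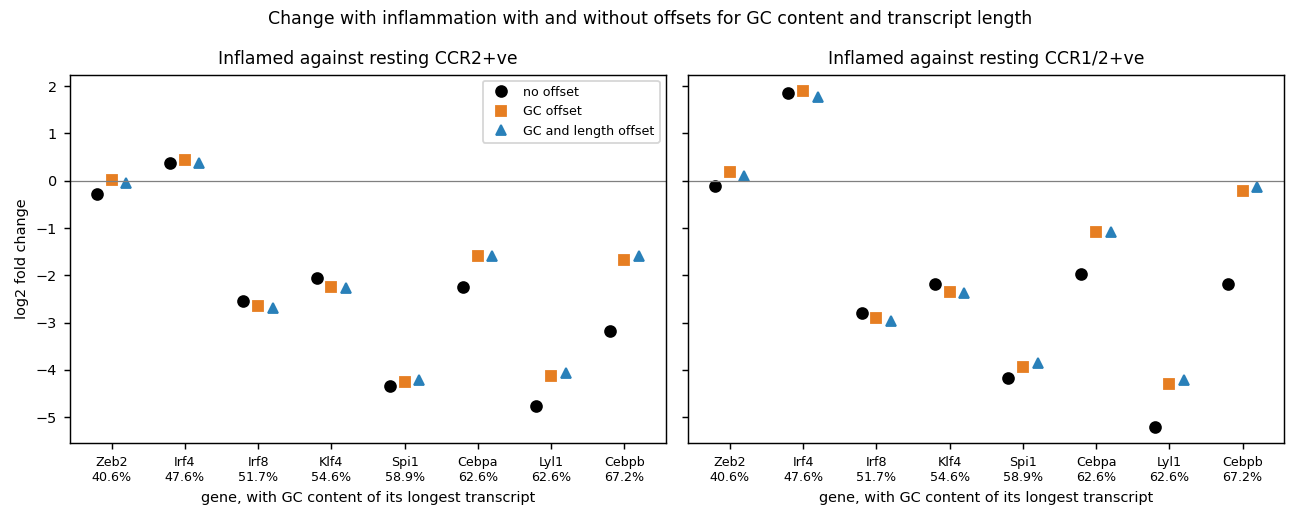
Log2 fold change with inflammation of 8 of the genes, ordered by the GC content of the longest transcript, without an offset (black circles), with a GC offset (orange squares) and with a GC and length offset (blue triangles). Gfi1 is left out for its low counts. The offset moved Cebpb in CCR1/2+ve monocytes from -2.19 to -0.22 and left Spi1 between -4.34 and -3.86 in both panels.

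Irf4 was the one gene of the 9 that rose. Of the 12 dendritic cell markers more were lower than higher, 6 against 1 in CCR2+ve and 4 against 3 in CCR1/2+ve monocytes. Their sums, given above, were higher in inflamed CCR1/2+ve monocytes and overlapped those at rest in CCR2+ve monocytes, with Cd74 the most abundant gene. In CCR1/2+ve monocytes Irf4 went from 2.40, 2.69, 1.76 and 2.71 CPM at rest to 6.93, 11.9 and 9.57 CPM with inflammation, with no overlap. The log2 fold change was 1.85 ± 0.25 (SE, adjusted p = 9.09e-05, edgeR), a 3.59-fold rise. In CCR2+ve monocytes it went from 17.3, 13.3, 16.1 and 18.7 CPM to 24.8, 21.1, 23.8 and 19.6 CPM. These groups lay close together without overlap, and the log2 fold change was 0.37 ± 0.14 (SE, adjusted p = 0.0366, edgeR). That call was lost without replicate 2 of the resting or replicate 1 or 3 of the inflamed CCR2+ve monocytes, with adjusted p of 0.0586, 0.0983 and 0.0848 (edgeR), and with all libraries in one fit (0.44, adjusted p = 0.112, edgeR). The rise differed between populations. The interaction was 1.43 ± 0.26 (SE, adjusted p = 0.0273, edgeR), Irf4 being the 1 gene called of 9, where 0.397% of all genes were called (0.241% higher and 0.155% lower, and 0.214% where a log2 value of 1 or more was also required). The call was lost without replicate 2 of resting CCR1/2+ve, replicate 3 of resting CCR2+ve, replicate 3 of inflamed CCR1/2+ve, or replicate 1 or 2 of inflamed CCR2+ve monocytes, with adjusted p from 0.0504 to 0.131 (edgeR) and values from 1.23 to 1.61 over all libraries left out. Cebpb came next, with an interaction of 0.94 ± 0.29 that did not pass in edgeR (adjusted p = 0.170) and did in DESeq2 (1.00, adjusted p = 0.0438), which called 2.92% of all genes.

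Zeb2 moved little with inflammation in either population. In inflamed CCR2+ve monocytes it was at 365.0, 399.2, 395.9 and 391.9 CPM, against 518.1, 401.0, 421.5 and 462.0 CPM at rest. The highest inflamed library lay just under the lowest resting one, and the log2 fold change was -0.29 ± 0.10 (SE, adjusted p = 0.0304, edgeR). The call was lost with RLE size factors, with all libraries in one fit and without replicate 1, 3 or 4 of the resting or 1 or 2 of the inflamed libraries, and the sign turned with a GC offset (0.01, adjusted p = 0.922, edgeR). In inflamed CCR1/2+ve monocytes Zeb2 was at 343.4, 363.9 and 317.7 CPM, within the range at rest, and the log2 fold change was -0.12 ± 0.11 (SE, adjusted p = 0.441, edgeR). Gfi1 had 0 reads in all 4 inflamed CCR2+ve libraries, which allows up to 3 reads over the group, against 6 at rest, and 3 reads in the inflamed CCR1/2+ve libraries, against 55 at rest. The latter ratio was 9.60 (95% interval 3.12 to 48.0), and neither change passed edgeR's test (adjusted p = 0.0777 and 0.0563). The fall in CCR1/2+ve monocytes was called with no filter (adjusted p = 0.0479, edgeR), all libraries in one fit (0.0152), a GC offset (0.0407), a GC and length offset (0.0401), DESeq2 (0.0395), and without replicate 3 (0.0220) or 4 (0.0456) of the resting or replicate 4 (0.0333) of the inflamed libraries.

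Other transcription factors were more often lower than higher. In CCR2+ve monocytes 45 of the 83 were lower and 10 higher, with a median log2 fold change of -0.86, and in CCR1/2+ve monocytes 37 were lower and 12 higher, with a median of -0.33. Cebpd, a C/EBP gene of the acute phase, fell from 183.1 ± 9.08 to 4.2 ± 1.17 CPM in CCR2+ve monocytes (SD, n = 4 each), with a log2 fold change of -5.51 ± 0.18 (SE, adjusted p = 1.66e-11, edgeR). In CCR1/2+ve monocytes it fell from 148.7 ± 14.2 to 3.16 ± 0.54 CPM. Of 14 progenitor factors 11 were lower in CCR2+ve monocytes and none higher. Of 6 other interferon regulatory factors none was lower in CCR2+ve monocytes and 1 rose, Irf7, by 1.73-fold, named after its values were seen. Bhlhe40, a repressor induced by GM-CSF, rose 3.97-fold, and Hdac1, a deacetylase in co-repressor complexes with GFI1 and ZEB2, rose 2.35-fold in CCR2+ve monocytes, while its relative Hdac2 fell 6.90-fold.

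Known targets of PU.1 were called in both directions. In CCR2+ve monocytes 4 of the 11 were higher and 4 lower, with a median log2 fold change of -0.07, and in CCR1/2+ve monocytes 6 were higher and 2 lower, with a median of 0.46. Tlr4, the receptor for lipopolysaccharide, rose 3.08-fold and 3.65-fold in the 2 populations, and Csf3r rose 2.02-fold and 2.79-fold. Csf2ra, the alpha chain of the GM-CSF receptor, fell from 656.5 ± 23.4 to 49.7 ± 4.37 CPM in CCR2+ve monocytes, 13.9-fold. Csf2rb, the beta chain shared by the receptors for GM-CSF and IL-3, rose 2.66-fold in the same cells, from 187.9 ± 21.2 to 524.0 ± 30.2 CPM. Ifnar2, a chain of the IFN-α receptor, fell 4.13-fold there, and Il6ra, the IL-6 receptor, fell 3.52-fold in CCR1/2+ve monocytes. These are chains of receptors for the cytokines in the pumps.

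**Figure D4:**
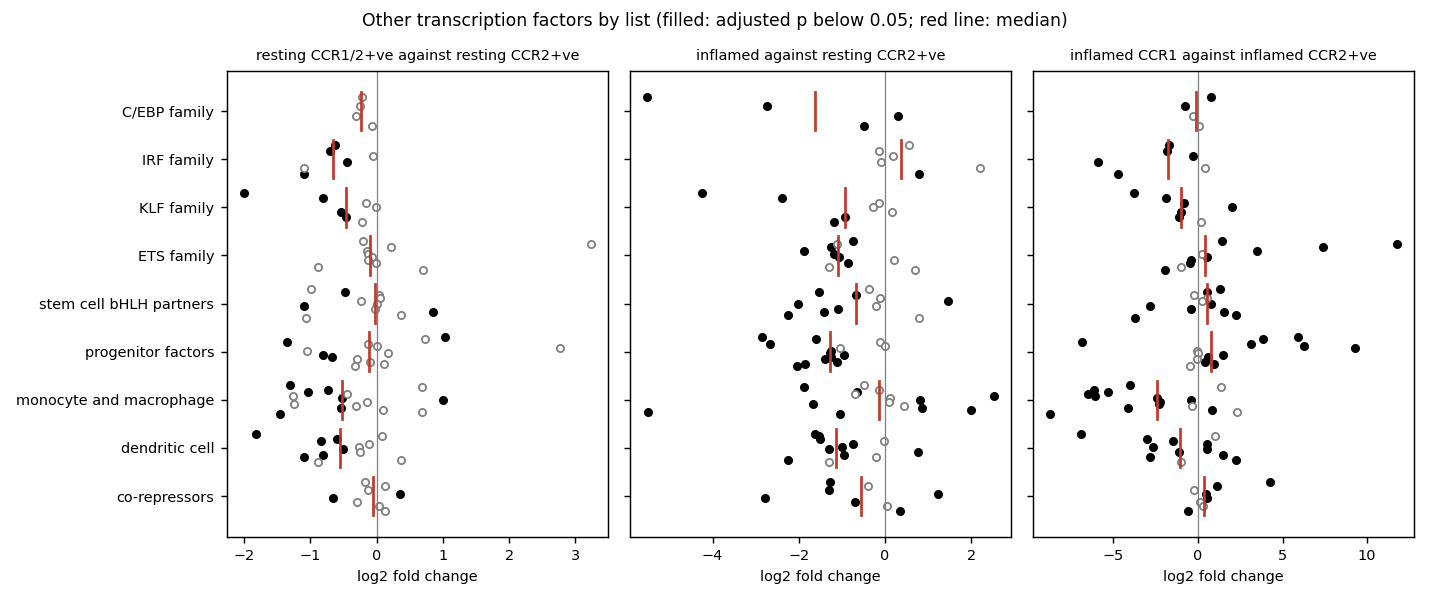
Log2 fold changes of the other transcription factors tested, 1 point a gene, by list, in 3 comparisons. Filled points passed an adjusted p of 0.05 (edgeR), the red line is the median of a list, and folds of genes near 0 CPM in a group depend on the prior count. With inflammation in CCR2+ve monocytes (middle) 45 genes were lower and 10 higher, and in the libraries labelled inflamed CCR1 (right) 28 were higher and 35 lower.

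The difference between the populations was also tested within inflammation. Of the 9 genes Irf4 alone was called, lower in inflamed CCR1/2+ve than in inflamed CCR2+ve monocytes, where 0.188% of all genes were called (0.123% higher, 0.0643% lower, and 0.145% where a log2 change of 1 or more was also required). Its libraries were at 6.93, 11.9 and 9.57 CPM against 24.8, 21.1, 23.8 and 19.6 CPM. The groups did not overlap, and the log2 fold change was -1.25 ± 0.20 (SE, adjusted p = 0.0244, edgeR). Leaving out replicate 2 or 4 of inflamed CCR1/2+ve monocytes lost the call, as did leaving out replicate 2 or 3 of inflamed CCR2+ve monocytes, with adjusted p from 0.0528 to 0.112 (edgeR). The other 8 genes did not pass, with log2 fold changes from -0.58 ± 0.21 for Lyl1 to -0.14 ± 0.26 for Irf8 among the 7 of them with over 3 reads in each group. None of the 83 other transcription factors was called by edgeR, and DESeq2 called 2. In edgeR 16 of them had an unadjusted p below 0.05, a share that was not counted over all genes. Dendritic cell markers summed to between 956.9 and 1201 CPM in inflamed CCR1/2+ve and between 1373 and 4997 CPM in inflamed CCR2+ve libraries, and of the 12 genes 0 were called by edgeR.

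Last, the libraries labelled inflamed CCR1 were compared with both inflamed monocyte groups. These 2 comparisons share the CCR1 libraries. In each 8 of the 9 genes were called, 6 lower (Spi1, Irf8, Irf4, Klf4, Cebpb and Zeb2) and 2 higher (Gfi1 and Lyl1), with Cebpa the exception. Against inflamed CCR2+ve monocytes 48.1% of all genes were called (22.7% higher and 25.4% lower), and against inflamed CCR1/2+ve monocytes 43.2% (20.2% higher and 23.0% lower). Where a log2 change of 1 or more was also required the counts were 6 and 7 of 9, beside 31.3% and 27.7% of all genes. Since neutrophil and early granulocyte markers were far higher in these libraries, as given above, the values compare libraries that differ in cell type markers.

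Gfi1 was at 25.9, 20.98, 25.7 and 19.8 CPM in these libraries, 2012 reads in all, against 0 reads in inflamed CCR2+ve monocytes and 3 in inflamed CCR1/2+ve monocytes. All 4 libraries lay above every other library of the series, the next being a resting CCR1/2+ve library at 0.887 CPM. Against inflamed CCR2+ve monocytes Gfi1 was at least 679-fold higher, with 3 reads over that group taken as the floor (adjusted p = 1.87e-11, edgeR). Against inflamed CCR1/2+ve monocytes the ratio was 488.9 (95% interval 167 to 2370, counting error only).

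Irf4 had 0, 0, 0 and 5 reads in the 4 libraries, the 5 in replicate 4. Inflamed CCR2+ve monocytes held 1958 reads of it, 387-fold more at equal depth (95% interval 166 to 1190). Zeb2 was at 18.8, 20.9, 18.2 and 20.0 CPM, where every other library lay at 312.5 CPM or more, and was 19.8-fold lower than in inflamed CCR2+ve monocytes (log2 fold change -4.31 ± 0.11, SE, adjusted p = 1.22e-14, edgeR). Klf4 was at 0.819, 2.98, 1.71 and 1.32 CPM, 17.2-fold lower, and Irf8 at 8.28, 15.6, 11.04 and 6.88 CPM, 8.31-fold lower. These 4 factors, tied to monocytes and dendritic cells, had their lowest means of the 5 groups in these libraries, and so had Spi1 and Cebpb.

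Spi1 differed little between these libraries and the inflamed monocytes. It was at 23.3, 24.1, 24.5 and 24.9 CPM, against 37.2 to 40.5 CPM in inflamed CCR2+ve monocytes, giving a log2 fold change of -0.65 ± 0.12 (SE, adjusted p = 0.000165, edgeR). Cebpb was 4.08-fold lower, at 2.00, 2.13, 1.29 and 1.27 CPM. Cebpa was at 11.6, 10.0, 10.6 and 7.72 CPM, over the same range as the 8.51 to 11.2 CPM of inflamed CCR2+ve monocytes, and its log2 fold change was 0.00 ± 0.18 (SE, adjusted p = 1, edgeR). Lyl1 was at 16.7, 15.2, 16.3 and 11.2 CPM, above every inflamed monocyte library, with log2 fold changes of 0.59 ± 0.17 (SE, adjusted p = 0.00764, edgeR) against CCR2+ve and 1.15 ± 0.22 (SE, adjusted p = 0.000672, edgeR) against CCR1/2+ve monocytes.

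Of the 83 other transcription factors 28 were higher and 35 lower in these libraries than in inflamed CCR2+ve monocytes, and 25 and 29 against inflamed CCR1/2+ve monocytes. Among 14 progenitor factors 9 were higher in each comparison, among them Myb, a factor of dividing progenitors, at 91.3 ± 5.28 CPM (SD, n = 4) against 1.84 ± 0.53 CPM in inflamed CCR1/2+ve monocytes. Ets1, an ETS factor best known in lymphocytes, was at 259.7 ± 25.4 CPM against 1.53 ± 0.11 CPM in inflamed CCR2+ve monocytes. Among 15 monocyte and macrophage factors 11 were lower in each comparison. Irf7, the interferon factor of antiviral responses, was 26.3-fold lower than in inflamed CCR2+ve monocytes, and Tcf4 7.19-fold lower. Of 9 genes known as targets of C/EBP factors, all of them also early granulocyte or neutrophil markers, 9 were higher than in inflamed CCR2+ve monocytes. Ngp, which encodes neutrophilic granule protein, reached 86030 ± 12700 CPM, while Csf1r was at 17.7 ± 4.44 CPM, 84.6-fold lower.

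Between genes, levels were compared per kilobase of the longest transcript. In resting CCR2+ve monocytes Spi1 was highest at 361.2 ± 36.8 CPM per kb (SD, n = 4), followed by Lyl1 at 142.0 ± 8.40 and Irf8 at 139.8 ± 8.83, which did not differ beyond their spread. Zeb2 (49.4 ± 5.66), Cebpb (39.4 ± 11.8) and Klf4 (39.0 ± 6.06 CPM per kb) overlapped, above Cebpa (17.3 ± 4.76) and Irf4 (3.44 ± 0.48). This order depends on the length used. Per kilobase of all annotated exons Irf8 was at 68.7, below Lyl1 at 142.0, and Zeb2 was at 22.6, below Cebpb at 39.4 and Klf4 at 38.8. In inflamed CCR2+ve monocytes Zeb2 led at 42.5 ± 1.71 CPM per kb, above Irf8 (25.2 ± 5.93) and Spi1 (18.7 ± 0.80), and Lyl1 had dropped to 5.48 ± 0.47, close to Irf4 (4.68 ± 0.50) and Cebpb (4.57 ± 0.71). Zeb2 had a lower level of 19.5 CPM per kb there when all its annotated exons are counted, closer to Spi1 at 14.1 and Irf8 at 12.4 on the same scale. In the libraries labelled inflamed CCR1 Spi1 (11.9 ± 0.34 CPM per kb) led, followed by Lyl1 (8.24 ± 1.39) and Gfi1 (8.08 ± 1.11), which overlapped, and Irf4 was last at 0.0124.

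Across the 19 libraries the log2 levels of the 9 genes fell into a few shapes, described here without a test since libraries of a group share their condition. Spi1 and Lyl1 had a Pearson r of 0.97, Irf8 and Klf4 of 0.98, and Irf4 and Zeb2 of 0.93, while Gfi1 had r of -0.95 with Zeb2 and of -0.95 with Irf4. With the group means removed, r was 0.51 for Spi1 and Lyl1, 0.77 for Irf8 and Klf4, 0.76 for Cebpa and Cebpb, and 0.19 for Irf4 and Zeb2. The likeness of Irf4 and Zeb2 lay mostly between groups. Among 7685 genes with a mean of at least 10 CPM over the 19 libraries, those most like Spi1 across libraries were Mgat2 (r of 0.9975) and Tram1 (0.9972), and those most like Lyl1 were Ilkap (0.9975) and Rheb (0.9967). The genes most like Irf8 were Rexo2 and Tifa (0.99 each), those most like Klf4 were Itgb7 and Stxbp6 (0.99 each), and those most like Zeb2 were Rnd3 (0.9955) and Plekhm3 (0.9951). Irf4 was most like Sdc3 and Tlr7 (0.98 each), Cebpa like Dnaja2 and Orai1 (0.97 each), Cebpb like Klf3 and Tmem251 (0.99 each) and Gfi1 like Chd7 and Erg (0.98 each). These values are set mostly by the means of 5 groups.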

How the data were processed

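Raw read counts per gene were deposited for bulk RNA-seq of sorted monocytes. According to the study's methods, the authors prepared libraries with a low-input kit, assessed the reads by fastp and mapped them to GRCm38 by STAR (2.7.10a in the submitters' processing notes). The strand counted is not given in the sources used here. Among the 20 count columns 1 was tied to no sample record and stayed unused.

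Testing covered the 18652 of 50854 genes whose mean count over the 19 libraries was 1 or more. The 2 groups of a comparison were fitted by themselves in edgeR 4.0.16 (R 4.3.3) with TMM factors and the robust two-sided quasi-likelihood F test, p-values were adjusted over all tested genes by Benjamini-Hochberg, and the interaction was fitted on the 15 libraries of the CCR1/2+ve and CCR2+ve groups. A call is an adjusted p under 0.05. Each standard error was had by dividing the fold change (log2) by the square root of the F statistic. Every comparison was also run with DESeq2 1.42.0, RLE size factors, no filter and filterByExpr, all libraries in one fit, the fold cutoff of the study's methods, GC offsets, a replicate block and each library left out. The scripts were tested on simulated data. Positions, GC content and lengths are from GENCODE M21, of the longest transcript. GC and length offsets used lowess with a span of 0.3. Ratios of summed reads carry exact 95% intervals for counting error, and 3 reads over a group was the floor.

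The 9 genes, the lists and the cutoffs were chosen with earlier results of these data known. Ccr1, Ccr2 and marker genes aside, other genes were named by a rule unless said to be named or picked after their values were seen. By the rule they are the 2 with the smallest p in each direction among the other transcription factors and in each list of targets or receptors. The 2 genes most correlated with each member in log2 CPM were added. Of the listed genes, Cebpe, Irf9, Klf5, Elf1, Ctsg, Azu1, Il3ra, Trac and Mcpt8 were not analysed here.

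Same-numbered samples were compared by the correlation of their deviations from group means over 7685 genes. In resting monocytes every pair correlated (r from 0.306 to 0.611), as did the libraries labelled inflamed CCR1 with inflamed CCR2+ve monocytes (0.134 to 0.247), so the numbers were taken to pair those samples. In the other comparisons they did not.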

Additional observations from a re-analysis of the deposited data

Results flagged for a closer look

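Of 35 sets of 4 libraries of 1 gene in 1 group, 3 had a library that stood apart from the other three by Dixon's criterion, which chance alone gives in about 1 of 20 sets. Spi1 was at 40.5 CPM in replicate 4 of inflamed CCR2+ve monocytes, while the other three lay between 37.2 and 37.4 CPM. Irf4 was at 0.236 CPM (5 reads) in replicate 4 of the libraries labelled inflamed CCR1, where the other three had no read. Zeb2 was at 394.9 CPM in replicate 1 of resting CCR1/2+ve monocytes, above the 312.5 to 322.6 CPM of the other three.

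The change of Irf4 with inflammation differed between the populations, by 1.43 on the log2 scale (adjusted p = 0.0273, edgeR interaction).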

How the results depend on the processing

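Among values of single genes under alternatives, 1159 kept their side of the threshold, 46 lost the call, 17 gained it and 2 reversed a called direction. Of the 1159, 31 values of 9 results that were not called turned sign. The falls of Spi1, Irf8, Klf4, Cebpa and Lyl1 with inflammation kept their calls in both populations under every alternative run. The reversed values were those of Zeb2 in CCR2+ve monocytes, 0.0142 with a GC offset and 0.0189 with a GC offset and the replicate block. The block brought the count of the 9 genes in resting monocytes from 5 to 6 and that of the other factors from 28 to 41 (25.7% of all genes called, against 16.9%), and changed no call of the 9 genes in the libraries labelled inflamed CCR1 against inflamed CCR2+ve monocytes. Where numbers did not pair the samples, the block brought the other transcription factors called between inflamed populations from 0 to 3 and in the interaction from 0 to 6, beside 1.19% of all genes in each. Where a log2 change of 1 or more was also required the 9 genes gave 2 calls in resting monocytes, and the other factors 10 there and 28 for inflammation in CCR1/2+ve monocytes. At that cutoff 4.25% of all genes were called in resting monocytes and 28.5% for inflammation in CCR1/2+ve monocytes. With a GC offset and the block, 43 of the other factors were called in resting monocytes, beside 25.9% of all genes.

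Of the other factors between inflamed populations (0 called by edgeR), DESeq2 called 2 (1.38% of all genes), no filter 1, all libraries in one fit 1, a GC offset with the block 3, and a covariate parting replicates 1 and 2 from 3 and 4, added after seeing the data, 2. In the interaction, where edgeR called 0 and 24 of 83 had an unadjusted p below 0.05, DESeq2 called 10 (2.92% of all genes, against 0.397%), RLE factors 2, no filter 1, filterByExpr 1, all libraries in one fit 3, a GC offset 2, a GC offset with the block 5, a GC and length offset (also added later) 1 and the covariate 4. DESeq2 called 2 of the 9 genes there. How many of all genes had an unadjusted p below 0.05 was not counted.

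With each library left out, the calls among the 9 genes ranged from 2 to 5 in resting monocytes, from 0 to 1 between inflamed populations and from 0 to 1 in the interaction. The fit with 2 calls in resting monocytes called 13.0% of all genes. Those among the other factors ranged from 0 to 2 between inflamed populations, where 2 were called without replicate 1 or 4 of inflamed CCR2+ve monocytes, and from 0 to 3 in the interaction. The causes were not tested. Few reads stood behind Gfi1 in monocytes, at most 29 in a library, and behind Irf4 in the libraries labelled inflamed CCR1, at most 5.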
